A study of Mus musculus with 2 samples.

Results

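The genes described here encode mitochondrial ribosomal proteins (MRPs), the protein subunits of the ribosome that works inside mitochondria. They were taken as every protein-coding gene of the GENCODE M21 mouse annotation whose symbol starts with Mrpl or Mrps followed by a digit, which gave 78 of 21938 protein-coding genes. Of these, 49 carry the L of the large ribosomal subunit and 29 the S of the small subunit in their symbol. Binding of GABPα was measured by chromatin immunoprecipitation and sequencing (ChIP-seq), in 1 ChIP library made with an antibody against GABPα and 1 input DNA library made without antibody. Both came from CD4+ T cells of mice called wild-type, on a C57BL/6 background, purified with magnetic beads. The study gives the name wild-type to its littermate controls with floxed Gabpa alleles (Gabpa f/f). Whether the mice used for ChIP-seq carried these alleles is not stated separately. The age and number of the animals are not given in the sources used here, and no treatment is listed. The deposited list holds 6782 peaks with their positions on mm10, and its score column is empty for all 6782. It therefore carries no height, count, fold or q value, and the depth of the libraries is unknown. A gene is said to have a peak where an interval of the list lies within 1000 bp of the start of any of its annotated transcripts, and a gene without a peak is only a gene with no listed interval there. With 1 ChIP library there is no replicate, so no p value is given, and each 95% interval (Wilson for a share, Newcombe for a difference of shares) covers counting error only. The list holds no expression values, so the labelled cell type could not be checked against its markers.

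Mitochondria keep a small genome that codes for a handful of subunits of the respiratory chain, and those messages are read by a ribosome of their own. All proteins of that ribosome are encoded in the nucleus, made in the cytosol and imported, and they assemble with mitochondrial ribosomal RNA into a small subunit, which decodes the message, and a large subunit, which joins the amino acids. GABPα is the DNA-binding part of an Ets-family factor that pairs with GABPβ. Ets proteins bind DNA through a GGAA core, and the GABP complex is known as a regulator of nuclear genes for mitochondrial proteins.

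The Ets-type sequence CCGGAAG was searched on both strands of each peak as an exact match. It lies within the peaks of 34 of the 48 MRP genes that have one, and 48 of 78 MRP genes have one beside a background of 17.7% of all protein-coding genes. The 27-base sites printed here each read 5′ to 3′ on the strand that holds CCGGAAG, which is in capitals. The first set is shown because its 6 sites, the ones among 42 copies in MRP peaks with this property, have an A before and a T after the capitals, which makes the longer match ACCGGAAGT.
Mrpl3, chr9:105053239-105053265, plus strand: gagaaacggaCCGGAAGtggcccggct
Mrpl13, chr15:55557548-55557574, plus strand: cggcaggaaaCCGGAAGtgcacgttgc
Mrpl43, chr19:45006438-45006464, minus strand: aaccccggaaCCGGAAGtcaccggtta
Mrpl51, chr6:125192100-125192126, plus strand: aggggctaaaCCGGAAGtatttgactg
Mrpl52, chr14:54426901-54426927, minus strand: agcaagggaaCCGGAAGtgggcgtggc
Mrps35, chr6:147042727-147042753, minus strand: gggggcgggaCCGGAAGtgtgtaacct

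The second set shows the peaks in which CGGAAG is repeated directly, 6 bp on, with both copies in capitals. They were picked out after the sites had been read.
Mrpl21, chr19:3283034-3283063, minus strand: agtcccaacCGGAAGCGGAAGcagcgcgaa
Mrps18a, chr17:46110970-46110999, plus strand: cccctgctcCGGAAGCGGAAGtgcacacgc
Mrps21, chr3:95871482-95871511, plus strand: tctgcggacCGGAAGCGGAAGctacggagt
Mrps23, chr11:88204388-88204417, minus strand: ggctgttacCGGAAGCGGAAGcggcagcaa

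The third set holds the sites of MRP genes that have CCGGAAG near the 5′ end of the gene and no peak in the list.
Mrpl4, chr9:21002765-21002791, minus strand: cacttgacagCCGGAAGccccgacacc
Mrpl22, chr11:58171601-58171627, plus strand: ttttccggtcCCGGAAGccggcctcgg
Mrpl34, chr8:71464879-71464905, plus strand: actacagctcCCGGAAGgccccgcggc
Mrpl38, chr11:116138994-116139020, plus strand: tagtgcgggcCCGGAAGatgcctgttg
Mrps24, chr11:5715879-5715905, plus strand: ccgccagtgtCCGGAAGccgccgccct

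Of the 78 MRP genes, 48 had a GABPα peak within 1000 bp of a transcript start (61.5%, interval 50.4 to 71.6). Among all protein-coding genes, 3880 of 21938 had one, which is a background of 17.7%. The large and the small subunit did not differ in this share beyond counting error. A peak lay at 30 of 49 large subunit genes (61.2%, interval 47.2 to 73.6) and at 18 of 29 small subunit genes (62.1%, interval 44 to 77.3). The difference, large minus small, was -0.844 percentage points with an interval from -21.5 to 21. Symbols do not follow the structure everywhere: Mrps18a and Mrps30 encode proteins that sit in the large subunit, and the product of Mrps36 is no longer counted as a ribosomal protein. With genes sorted by place, 32 of 51 large and 16 of 26 small subunit genes had a peak, and the difference was 1.21 points (interval -19.9 to 23.6).

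Promoters rich in CpG were common among these genes, and CpG-rich promoters had peaks more often in the genome at large. Of the 70 MRP genes with at least 10 CpG in the window from 250 bp upstream to 50 bp downstream of the gene's 5′ end, 43 had a peak (61.4%, interval 49.7 to 72). Among all protein-coding genes with as many CpG, 3367 of 11723 had one (28.7%, interval 27.9 to 29.5), and among those with fewer CpG 5.02% had one. Among genes with at least 10 CpG in this window, the MRP share was above that of all protein-coding genes, with intervals that do not overlap. Genes were not matched for CpG number within this class, and CpG content as a source of the MRP share was not tested. The window sits at the gene's 5′ end, while a peak counts at any annotated start.

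**Figure D1:**
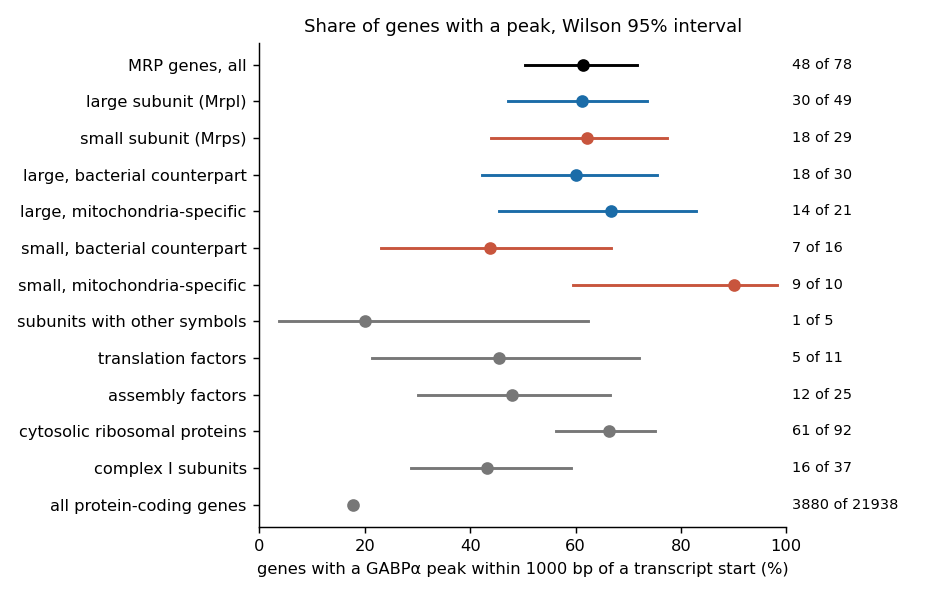
Share of genes with a GABPα peak within 1000 bp of a transcript start (x axis, percent) for MRP genes and comparison lists (rows), as points with Wilson 95% intervals and the counts at the right. Black is all MRP genes, blue the large subunit, red the small subunit and grey the comparison lists; all MRP genes stand at 61.5% and all protein-coding genes at 17.7%.

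The proteins were also split by whether the protein nomenclature gives them a bacterial counterpart. This split, like the place of a protein in the ribosome and the lists of factors further on, was written from general knowledge and not taken from a deposited source. Mrps18a and Mrps18b are relatives of the bacterial protein to which the nomenclature matches Mrps18c, and they were counted as specific to mitochondria. Of 46 MRP genes with a bacterial counterpart, 25 had a peak (54.3%, interval 40.2 to 67.8), and of 31 specific to mitochondria 23 had one (74.2%, interval 56.8 to 86.3). The difference was -19.8 points with an interval from -38.5 to 2.21, which includes no difference. With Mrps18a and Mrps18b counted as having a counterpart, 27 of 48 and 21 of 29 had a peak, and the difference was -16.2 points (interval -35.2 to 6.17). In the small subunit by place, 9 of 10 mitochondria-specific genes and 7 of 16 genes with a counterpart had a peak. In the large subunit the same counts were 14 of 21 and 18 of 30. The wider gap was in the small subunit, where the intervals (59.6 to 98.2 and 23.1 to 66.8) still overlap. This split was not among the comparisons set in advance, and the small subunit was singled out from the same counts. The intervals do not cover these choices. There, with Mrps18b moved, the counts were 8 of 9 and 8 of 17. The only mitochondria-specific small subunit gene by place that had no peak was Mrps25.

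The genes named next by the place of their product were picked with their values known, so their mixture of genes with and without a peak describes the examples only. Mrpl3, whose product lies close to the peptidyl transferase centre, had a peak of 280 bp with its midpoint 6.5 bp upstream of a transcript start. The peak at Mrpl16, one of the genes the study names, was 291 bp wide and covered the start, with its midpoint 47 bp upstream. It lay at chr19:11770199-11770489 and held no CCGGAAG but 1 copy of the shorter CGGAAG. That 26-base site is shown because it is the only such copy in the peak.
Mrpl16, chr19:11770322-11770347, minus strand: agagtcctgaCGGAAGtagaggaaac

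Mrpl27, a protein that reaches towards the tRNA end in the bacterial ribosome, had a peak of 308 bp, and Mrpl2, another core protein, a narrow one of 122 bp that ended 59 bp upstream of the start. Mrpl4 had no peak. Of the genes for the stalk that recruits translation factors, Mrpl10 had a peak of 285 bp and Mrpl12 one of 195 bp, while Mrpl11 had none. Around the exit of the peptide tunnel, Mrpl17 and Mrpl23 (240 bp) had peaks, and Mrpl22, Mrpl24 and Mrpl45, the last a protein that holds the ribosome at the inner membrane, had none. In the central protuberance, the crown of the large subunit, Mrpl18 (339 bp), Mrpl40, Mrpl48 and Mrpl58 (443 bp) had peaks, and Mrpl38 and Mrpl46 had none.

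In the small subunit, Mrps12, whose product belongs to the decoding centre, had a peak of 136 bp at its start, and Mrps5, at the message channel, had none. In the head of the subunit, Mrps7 (126 bp), Mrps10 (201 bp) and Mrps14 (277 bp) had peaks, and Mrps9 had none. Mrps27, a pentatricopeptide repeat protein, had a peak of 202 bp centred 60.5 bp upstream of its start. Mrps35, the other gene the study names, had a peak of 234 bp at chr6:147042593-147042826, centred 54.5 bp upstream, with the ACCGGAAGT site printed above 24 bp upstream of the start. The paralogs Mrps18a, Mrps18b and Mrps18c, 3 relatives of 1 bacterial ribosomal protein, all had a peak. Their widths were 220, 599 and 278 bp, and each peak held 1 copy of CCGGAAG.

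The 30 MRP genes without a peak were Mrpl4, Mrpl11, Mrpl14, Mrpl15, Mrpl19, Mrpl22, Mrpl24, Mrpl32, Mrpl34, Mrpl35, Mrpl36, Mrpl37, Mrpl38, Mrpl42, Mrpl45, Mrpl46, Mrpl49, Mrpl54 and Mrpl55 in the large subunit, and Mrps2, Mrps5, Mrps6, Mrps9, Mrps11, Mrps15, Mrps17, Mrps24, Mrps25, Mrps28 and Mrps36 by symbol in the small. The gap from a transcript start to the nearest peak had a median of 32290 bp. At 23 of the 30 that nearest peak was within 1000 bp of a start of another protein-coding gene. The same count was not made for other genes without a peak. Mrpl34 came closest, with a peak of 157 bp at chr8:71462898-71463054 that was 568 bp from a start of Abhd8. Next was Mrpl49, 3288 bp from a peak that covers a start of Znhit2, and then Mrpl35, 4155 bp from a peak that covers a start of Immt, the gene of a protein that shapes the cristae of mitochondria. The farthest were Mrps6 (260389 bp), Mrpl36 (272893 bp) and Mrpl19 (686973 bp). Mrpl46 and Mrps11 are read from opposite strands with starts 412 bp apart, and neither had a peak or a CCGGAAG in its promoter window.

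The distance limit of 1000 bp did not divide a dense group of genes. The member with a peak just inside it was Mrpl47, with a gap of 227 bp between peak and start, and just outside it came Mrpl34 at 1905 bp, with no MRP gene between. Mappability was computed as the share of 36-base sequences that occur at 1 place in the genome. In windows of 500 bp to either side of the gene's 5′ end it was 100% for 18 of 30 genes without a peak and at lowest 87.06%, at Mrps17. For genes with a peak it was 100% in 28 of 48 such windows and at lowest 82.51%. Median GC content of the 300 bp promoter window was 59% for MRP genes with a peak and 56.5% for those without, with quartiles of 52.75 to 63.5 and 50.8 to 62.5. Median CpG number was 21 and 16.5.

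Across the 48 genes there were 51 peaks, none of them shared between MRP genes. Mrpl17, Mrpl40 and Mrpl48 had a pair of peaks each. At Mrpl17 a peak of 161 bp covered a start and another of 118 bp lay 169 bp upstream of the gene. At Mrpl40, one of 229 bp covered a start and one of 383 bp lay 100 bp upstream, covering a start of Hira, the gene of a histone chaperone. At Mrpl48, peaks of 263 and 313 bp lay near starts far apart along the gene, and the former was centred 25266 bp inside the gene record. The latter was 70 bp from an Mrpl48 start and covered a start of Rab6a.

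Peaks at MRP genes tended to be wide for the list. The median width was 245 bp (quartiles 201.5 and 299.5, extremes 104 and 599), against 210 bp (158.75 and 267) for 3408 peaks at starts of other protein-coding genes and 157 bp for the whole list. Of the 51, 44 were at or above that list median (86.3%, interval 74.3 to 93.2), against 2590 of 3408 at other coding starts (76%, interval 74.5 to 77.4). The widest peak of the group was that of Mrps18b, on chromosome 17 from 35916340 to 35916938. It was wider than 99.48% of the list and also covered a start of Ppp1r10, the gene of a phosphatase regulator read in the opposite direction. Then came Mrpl58 (443 bp), a peptidyl-tRNA hydrolase built into the ribosome, followed by Mrpl13 (406 bp), Mrpl43 (405 bp), Mrps16 (387 bp), Mrpl40 (383 bp), Mrpl21 (354 bp), Mrpl20 (349 bp), Mrpl18 (339 bp) and Mrpl44 (329 bp). The narrowest were at Mrpl9 (104 bp, the smallest width in the list), Mrpl2 (122 bp), Mrps7 (126 bp), Mrps12 (136 bp) and Mrps26 (139 bp), when each gene is taken by its widest peak. Median width was 260 bp over 33 large subunit peaks and 218 bp over 18 small subunit peaks, with quartiles of 205 to 317 and 182.25 to 264.75.

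**Figure D2:**
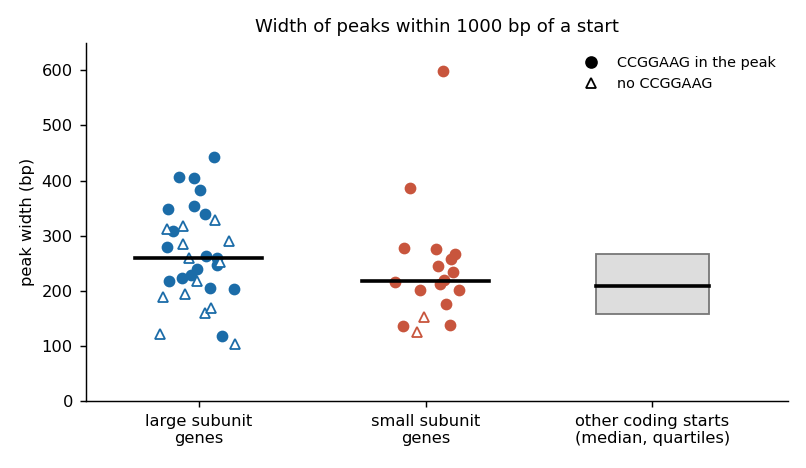
Peak width in bp (y axis) for the 33 peaks of large and 18 peaks of small subunit genes, filled where the peak holds CCGGAAG and open where it does not, with black bars at the medians of 260 and 218 bp. The grey box gives the quartiles, 158.75 to 267 bp, and median, 210 bp, of 3408 peaks at other protein-coding starts.

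The peaks sat on the transcript starts. Of the 51, 43 covered a start of their MRP gene (84.3%, interval 72 to 91.8), against 80% of peaks at other coding starts. The median distance from the peak midpoint to the nearest start was 37 bp, against 29.5 bp at other coding starts, and 44 of 51 midpoints lay within 100 bp (86.3%), against 80.3%. Midpoints were upstream of the start in 32 of 51. At Mrps23 the midpoint coincided with the start, and at Mrpl23 and Mrps18a it was 0.5 bp away. An exon of the gene was overlapped by 45 peaks and coding sequence by 36. Start choice within a gene mattered at several members: the 5′ end of the gene record itself was covered at 34 of 48 genes. Mrpl33, the gene of a large subunit protein, had its peak 17034.5 bp inside the gene record, where it covered an annotated alternative start with its midpoint 2.5 bp away.

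**Figure D3:**
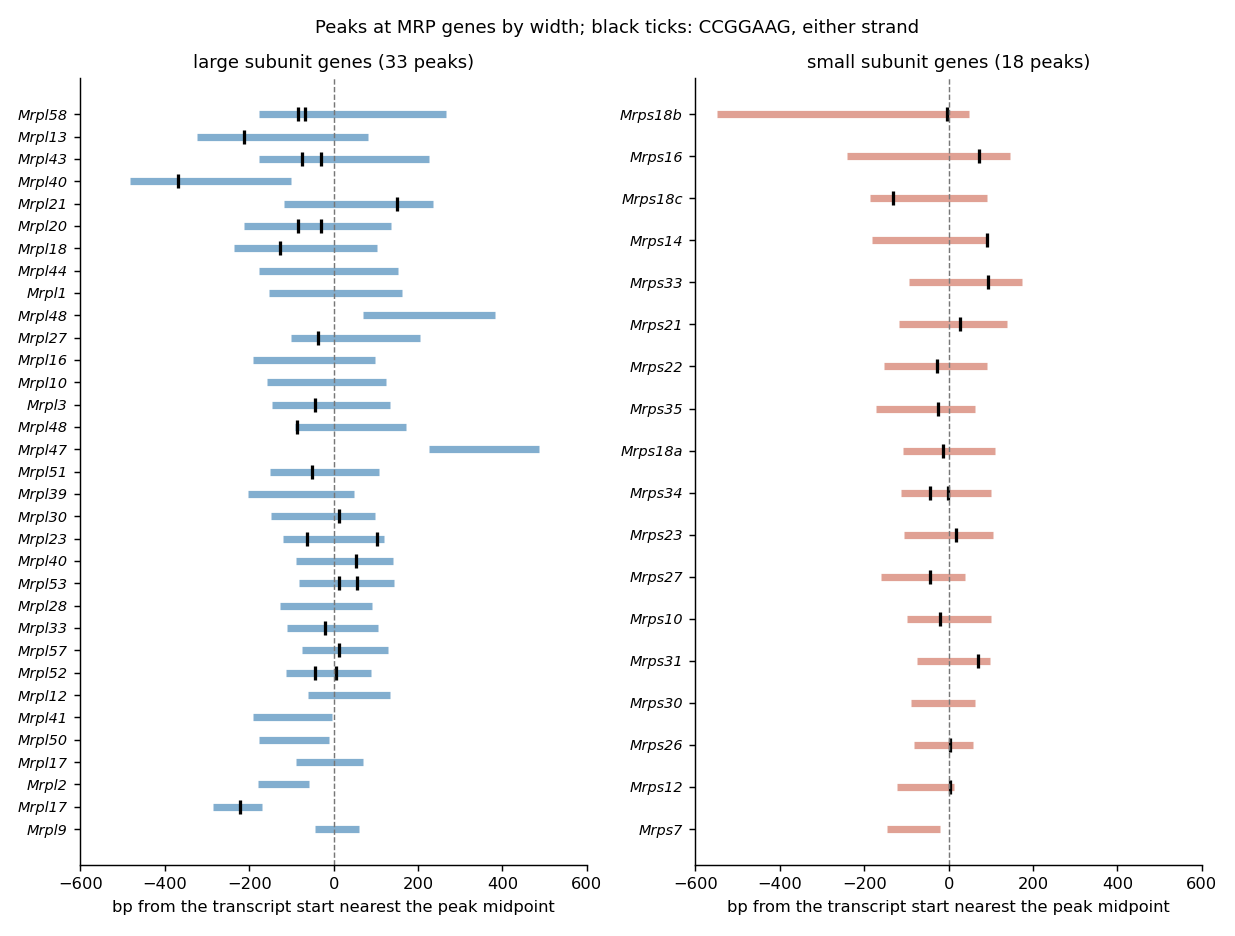
Each bar is 1 of the 51 peaks at MRP genes, ordered by width, drawn in bp from the transcript start nearest its midpoint (x axis, negative is upstream), with black ticks at CCGGAAG on either strand. Of the 51 bars, 43 cross the dashed line at the start, and the peak of Mrpl47 lies farthest downstream, from 227 bp on.

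Many of these promoters are shared with a neighbouring gene. Of 51 peaks, 25 were also within 1000 bp of a start of another protein-coding gene, and 17 of those 25 covered it. For such peaks the list cannot tell the MRP gene from its neighbour. The matching share was not computed for peaks at other coding starts, so this sharing is not known to be particular to MRP genes. A divergent neighbour, read in the opposite direction from a 5′ end at most 1000 bp upstream or overlapping by at most 100 bp, was found for 19 MRP genes, of which 13 had a peak (68.4%, interval 46 to 84.6). Without one, 35 of 59 MRP genes had a peak (59.3%, interval 46.6 to 70.9). Over all protein-coding genes the corresponding shares were 48.5% and 15.3%. Genes without a divergent neighbour by this definition can still share a peak with another gene. The peaks of Mrpl13, Mrpl18, Mrpl27 and Mrpl43, for example, covered a start of Mtbp, Tcp1, Eme1 and Twnk. Since MRP peaks lay at most 227 bp from a start, a divergent neighbour was likely to start within 1000 bp of the peak too. It did for all 13 MRP genes with such a neighbour and a peak. The closest such pairs with a peak were Mrps18c with the DNA helicase gene Helq (29 bp), Mrps34 with Eme2 (29 bp), Mrps18b with Ppp1r10 (45 bp), Mrpl57 with Ska3 (49 bp) and Mrpl30 with Mitd1 (66 bp). Divergent pairs without a peak were Mrpl32 with the proteasome gene Psma2, Mrpl36 with the complex I gene Ndufs6, Mrpl37 with Cyb5rl, Mrpl49 with Fau, Mrpl54 with Apba3 and Mrps5 with Zfp661. Mrpl46 and Mrps11, whose records overlap by 413 bp, were not counted as divergent. The peak of Mrpl47 was 227 bp from an Mrpl47 start and 70 bp from a start of Ndufb5, a complex I gene. That of Mrps12 was 49 bp from a start of Sars2, which encodes the mitochondrial seryl-tRNA synthetase, and that of Mrpl43 covered a start of Twnk, the mitochondrial DNA helicase.

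CCGGAAG occurred in 35 of 51 peaks at MRP genes (68.6%, interval 55 to 79.7) and in 1944 of 3408 peaks at other coding starts (57%, interval 55.4 to 58.7). In windows of equal width 2000 bp to either side of the MRP peaks it was found in 1 of 102. These windows were not matched to the peaks in GC content or CpG number. The MRP interval holds the value of the other coding starts, so the share was not distinguishable from theirs at this number of peaks. The shorter CGGAAG, which every CCGGAAG contains, was present in 44 of 51 (86.3%), against 76.5% at other coding starts, and the bare core GGAA in 49 of 51 (96.1%), against 98.8%. Peaks at 5 genes, Mrpl2, Mrpl28, Mrpl39, Mrpl41 and Mrps30, held no CGGAAG, and those of Mrpl2 and Mrpl41 held no GGAA either. No match says only that these letters are not in the listed interval.

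The share of peaks with CCGGAAG was lower for large than for small subunit genes. It was 19 of 33 for large subunit genes (57.6%, interval 40.8 to 72.8) and 16 of 18 for small subunit genes (88.9%, interval 67.2 to 96.9). The difference, large minus small, was -31.3 points (interval -49.9 to -4.83). With CGGAAG it was -12.6 points and the interval, -29.5 to 9.73, included 0. This comparison was chosen after the values were seen, and the intervals do not cover that choice. By gene, 18 of 30 large and 16 of 18 small subunit genes with a peak held CCGGAAG in a peak. The small subunit peaks without CCGGAAG were at Mrps7 and Mrps30, and the product of Mrps30 sits in the large subunit.

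The 42 copies of CCGGAAG had no preferred strand, with 22 on the strand of the gene. They lay close to transcript starts: 33 were within 50 bp and 38 within 100 bp of the nearest start, and 26 were upstream of it. The copy nearest the peak midpoint was at a median of 37.5 bp from it over 35 peaks. Full ACCGGAAGT matches made up 6 of 42 copies (14.3%, interval 6.72 to 27.8), beside 12.5% of 2530 copies in peaks at other coding starts. No MRP peak held more than 2 copies, and 7 held 2. The copies were 15 bp apart at Mrpl58, 42 bp at Mrps34, 43 bp at Mrpl53, where they are on opposite strands, 44 bp at Mrpl43, 49 bp at Mrpl52, 54 bp at Mrpl20 and 164 bp at Mrpl23. Their median of 44 bp stands beside 40 bp for 380 peaks with 2 copies at other coding starts. The direct repeat of CGGAAG printed above was in 4 of 51 MRP peaks (7.84%, interval 3.09 to 18.5) and in 77 of 3408 others (2.26%, interval 1.81 to 2.81). The repeat was picked out after these MRP sites had been read, and the intervals do not cover that choice. MRP peaks also tended to be wider, and the counts were not adjusted for width.

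Seen from the promoter, CCGGAAG was more frequent at MRP genes with a peak than at those without. It was in the window from 250 bp upstream to 50 bp downstream of the gene's 5′ end at 22 of 48 genes with a peak (45.8%, interval 32.6 to 59.7) and at 5 of 30 without (16.7%, interval 7.34 to 33.6). Of all 21938 protein-coding promoters 10.8% held it, and 34.6% of the MRP promoters did. Read the other way, 22 of 27 MRP genes with the sequence in the window had a peak (81.5%) and 26 of 51 without it (51%), a difference of 30.5 points (interval 8.06 to 47.3). With 2 or more copies, 4 of 4 MRP genes (interval 51 to 100) and 357 of 405 of all protein-coding genes (88.1%) had a peak. Among genes whose window lacks the sequence, 51% of MRP genes had a peak (interval 37.7 to 64.1), against 11.6% of all protein-coding genes (interval 11.1 to 12). With 1 copy, 18 of 23 MRP genes (78.3%, interval 58.1 to 90.3) and 64.4% of all coding genes had one, which the MRP interval includes. The 5 genes with the sequence and no peak are those of the third set above, and their copies lay between -212 and 40 bp from the start, where negative is upstream. The window sits at the gene's 5′ end, while a peak counts at any annotated start, so window and peak can lie at different promoters. Some MRP genes whose window lacks the sequence, such as Mrpl20, Mrpl23 and Mrps33, held it in their peak outside the window. In all, 34 of 48 MRP genes with a peak held it in a peak (70.8%). Mrpl33 counts among the 22 with sequence and peak, though its peak is 16926 bp from the 5′ end.

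**Figure D4:**
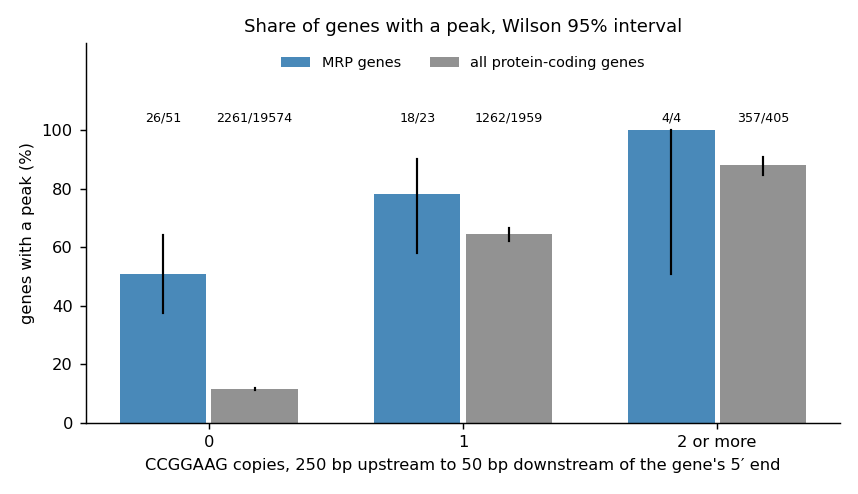
Share of genes with a GABPα peak (y axis, percent) by the number of CCGGAAG copies in the promoter window (x axis), for MRP genes in blue and all protein-coding genes in grey, with Wilson 95% intervals as lines and counts above. The bars of genes with 0 copies stand at 51% and 11.6%, and those with 1 copy at 78.3% and 64.4%.

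For other genes of mitochondrial translation the share was lower in value than for MRP genes, with overlapping intervals. Of 41 such genes outside the Mrpl and Mrps names, 18 had a peak (43.9%, interval 29.9 to 59). Among 5 further subunits of the mitochondrial ribosome with other symbols, Aurkaip1 had a peak of 278 bp with 3 copies of CCGGAAG, and Chchd1, Dap3, Gadd45gip1 and Ptcd3 had none. Peaks were found at 5 of 11 genes for translation factors, among them Tufm, the elongation factor that brings in aminoacyl-tRNA, with 311 bp, and Mtif2, the initiation factor that places the first tRNA, with 232 bp. Gfm1, Gfm2 and Mtrf1 had the others, while Guf1, Mrrf, Mtfmt, Mtif3, Mtrf1l and Tsfm had none. Of 25 genes for assembly, rRNA modification and maturation, 12 had a peak. Those without were Ddx28, Eral1, Fastkd2, Gtpbp10, Mpv17l2, Mrm1, Mrm3, Mterf3, Noa1, Nsun4, Rpusd3, Rpusd4 and Trmt2b. Genes with symbols of cytosolic ribosomal proteins had peaks at 61 of 92 (66.3%, interval 56.2 to 75.1), which was close to the MRP share. They were taken by symbol alone, mostly Rpl or Rps and a digit without Rps6k, so genes of other proteins may be among them. Complex I subunits, also taken by symbol, had peaks at 16 of 37 (43.2%, interval 28.7 to 59.1).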

How the data were processed

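ChIP DNA and input DNA of CD4+ T cells were sequenced as single-end reads. Per the labels and the methods of the study, the authors used Trimmomatic for read trimming, bowtie for alignment (mm10) and MACS2, with a q value cutoff and the input as control, for peaks, and deposited the peak intervals, whose columns hold positions only. Versions and the handling of reads with several matches are not given in the sources used here, and reads discarded for such matches would leave repeats without peaks.

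Deposited start positions were read as 0-based and are printed 1-based. Peaks were set on GENCODE M21 transcript starts and on the GRCm38.p6 sequence, the assembly called mm10, with Python 3.11.15, numpy 2.4.6, pandas 2.3.3 and scipy 1.17.1. CCGGAAG and, as alternatives, its shorter forms were sought as exact matches on both strands. Mappability used every 36-base sequence of the chromosomes (numba 0.67.0). The scripts were tested on simulated data.

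MRP genes and comparison lists were chosen with earlier results of these data known. Genes were named by rule: all without a peak, the 10 widest and 5 narrowest, those with several peaks, those without CGGAAG, those nearest the distance limit, Mrpl16 and Mrps35, the Mrps18 paralogs and the 5 closest divergent pairs with a peak. Others illustrate structural roles and were picked with their values known. Alternatives changed the distance, starts, peaks, motif and window. The input library entered only through the peak calling. The expression arrays of the study were not analysed here.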

Additional observations from a re-analysis of the deposited data

How the results depend on the processing

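The share of MRP genes with a peak ranged from 53.8% (peaks at or above the median width; all protein-coding genes 14%) to 62.8% (2000 bp; all 18.2%), beside 61.5% (all 17.7%). The difference between large and small subunit genes stayed within its interval under every alternative, but its sign is not fixed: it was -0.844 points as reported, 1.2 at 2000 bp, 1.21 by place in the ribosome, 8.87 with peaks at or above the median width and -5.56 where the peak had to cover the start. The share of other mitochondrial translation genes ranged from 39% to 43.9%, and median width from 237 to 248 bp. The median distance to a start rose from 37 to 58.5 bp when only the 5′ end of the gene record was used, since fewer starts then count. The share of peaks with the motif rose from 68.6% for CCGGAAG to 86.3% for CGGAAG, 92.2% for GGAAG and 96.1% for GGAA, since shorter sequences contain more matches. MRP genes without a peak held CCGGAAG in 16.7% of promoter windows, in 33.3% within 500 bp and in 40% within 1000 bp of any start, since longer windows hold more sequence. The wider windows are given for genes without a peak only, so they do not bear on the contrast with genes that have one. The motif difference between large and small subunit peaks was -31.3 points, -36.6 by place, -40 with wide peaks, -28.7 with peaks covering a start and -12.6 with CGGAAG, alternatives chosen after seeing the data. No paired analysis was possible because there is 1 ChIP library and no test. Depth is unknown, so a site under the authors' limit cannot be told apart from an unbound one.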

Other observations

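The annotation lists 5 processed pseudogenes with MRP symbols, copies of MRP transcripts that were written back into the genome, and none of them had a peak within 1000 bp of a start (0 of 5, interval 0 to 43.4%). No MRP peak was mostly repeat sequence: 0 of 51 had at least 50% of their bases soft-masked in the reference, against 60 of 3408 peaks at other coding starts (1.76%, interval 1.37 to 2.26). Of the 51 peaks, 44 consisted of 36-base sequences that all occur at 1 place in the genome, and the lowest share, 78.51%, was at Mrpl48. Among MRP genes with under 10 CpG in the promoter window, 5 of 8 had a peak (62.5%, interval 30.6 to 86.3), against 513 of 10215 protein-coding genes with as few (5.02%, interval 4.62 to 5.46). The window sits at the gene's 5′ end, while a peak counts at any annotated start. Of these 5 genes, only Mrpl44 had a peak covering its 5′ end. The peaks of Mrpl1, Mrpl20, Mrpl23 and Mrpl47 lay 469, 557, 355 and 685 bp from the 5′ end, outside the window.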
